A study of Mus musculus with 13 samples.

Results

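Marker genes of eosinophils, basophils and mast cells were examined in libraries of mouse bone marrow neutrophils. The 10 genes were Prg2, Prg3, Epx, Il5ra, Ccr3, Mcpt8, Prss34, Cpa3, Ms4a2 and Fcer1a. They were chosen by name, as genes of granulocytes other than the labelled cell, out of the 55536 genes in the tables. All 10 were detected in every library and all 10 passed the filter on low counts, which left 14184 genes for testing. The cells were freshly isolated from wildtype mice, and poly(A)-selected RNA was sequenced after extracellular RNase A (exRNaseA, n = 2 libraries) or a mock treatment (mock, n = 2 libraries). Both groups carry the wildtype genotype and the label of bone marrow neutrophils, and the RNase step is given as 10 min at 37 °C in HBSS. Because the mock samples carry the same protocol text, group membership rests on the sample titles and the treatment field. The series calls the libraries biological replicates, but the number of animals and the way the neutrophils were isolated are not given in the sources used here, so p-values measure the spread between these 4 libraries, which may be technical. Depth was similar, between 20661683 and 23722494 expected counts per library.

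Eosinophils and basophils arise in the marrow beside neutrophils and share early progenitors with them. Eosinophils store cationic proteins and a peroxidase in their granules and depend on interleukin 5. Basophils and mast cells carry the high-affinity IgE receptor, whose alpha chain binds IgE and whose beta and gamma chains pass on the signal, and they store proteases that differ between these cells. Many granule transcripts of eosinophils and basophils are made mainly while these cells mature in the marrow.

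Neutrophil genes stood at the top of the libraries. S100a9 and S100a8, ranked 1 and 2 by mean TPM, encode calprotectin and averaged 120775 and 96260 TPM (a level scaled for transcript length and library size) in the exRNaseA libraries, against 124945 and 97227 TPM in the mock libraries. Ngp, a neutrophil granule gene, averaged 22112 and 22377 TPM in exRNaseA and mock libraries. Marker genes of other marrow cells were detected as well. The 7 B cell genes summed to between 1828 and 1840 TPM over the 4 libraries and the 8 erythroid genes to between 4844 and 5077 TPM. Apart from Kit, Mitf and Gzmb, which other cells express too, the mast cell genes had at most 2 counts in any library. Of the 13 mast cell genes, 7 had no count in any library, among them the tryptases Tpsb2 and Tpsab1, the chymases Mcpt1 and Mcpt9, and the receptors Mrgprb1 and Mrgprb2. In bulk RNA, fewer cells of a type and less RNA per cell cannot be told apart. Which cells held the RNA of the eosinophil, basophil and mast cell genes was not tested.

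The eosinophil granule genes Prg2, Epx and Prg3 made up between 96.8% and 97.7% of the summed TPM of the 10 genes. Prg2 encodes major basic protein, the main cationic protein of the eosinophil granule. It stood at 420.3 and 396 TPM in the exRNaseA libraries, against 423 and 416 TPM in the mock libraries. By mean TPM it was number 302 of all 55536 genes, and it held between 86.6% and 88.0% of the summed TPM of the 10 genes. Mpo, the myeloperoxidase gene of neutrophil primary granules, had 281 and 277 TPM in the exRNaseA and 256 and 269 TPM in the mock libraries. Prg2 was between 1.43 and 1.65 times above Mpo, and S100a9 was between 294 and 302 times above Prg2.

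Epx encodes eosinophil peroxidase, the eosinophil relative of Mpo. It had 29.5 and 28.5 TPM in the exRNaseA libraries, against 27.5 and 28.7 TPM in the mock libraries, so the values of the groups overlapped. Prg3 encodes a homolog of major basic protein and lies 4563 bases from Prg2 on chromosome 2. It had 16.7 and 20.4 TPM in the exRNaseA libraries, against 20.1 and 18.4 TPM in the mock libraries. The ratio of Prg2 to Epx was between 13.9 and 15.4 in the 4 libraries, and that of Prg2 to Prg3 between 19.4 and 25.2, both on the TPM scale.

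The other 7 genes were far lower. The receptors Ccr3 and Il5ra, which bind eotaxins and interleukin 5, averaged 1.65 ± 0.0424 and 1.34 ± 0.269 TPM in the exRNaseA libraries, against 1.80 ± 0.0283 and 1.66 ± 0.431 TPM in the mock libraries (SD, n = 2 each). Mcpt8, a serine protease that in mice marks basophils, had 2.05 and 2.85 TPM in the exRNaseA libraries, against 4.78 and 3.07 TPM in the mock libraries. The mock library with 4.78 TPM stood above the rest. Prss34, another basophil serine protease, had 3.09 and 2.83 TPM in the exRNaseA libraries, which lay between the mock libraries at 3.78 and 2.47 TPM. Cpa3, a carboxypeptidase of mast cell and basophil granules, had 1.76 and 1.51 TPM in the exRNaseA libraries and 1.67 and 1.80 TPM in the mock libraries. Fcer1a, the alpha chain of the IgE receptor, had 0.45 and 1.1 TPM in the exRNaseA libraries, against 1.04 and 1.70 TPM in the mock libraries. Ms4a2, its beta chain, had 0.86 and 0.91 TPM in the exRNaseA libraries, against 1.16 and 1.00 TPM in the mock libraries.

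In order of mean TPM over the 4 libraries the genes ran Prg2, Epx, Prg3, Mcpt8, Prss34, Ccr3, Cpa3, Il5ra, Fcer1a and Ms4a2. The library values of Prg2, Epx and Prg3 did not overlap with those of the next gene in this order. Mcpt8 and Prss34 overlapped, and so did each pair of neighbours from Ccr3 to Ms4a2, so their order is not resolved by these libraries. Eosinophil genes (Prg2, Epx, Prg3, Il5ra and Ccr3) summed to 469 and 448 TPM in the exRNaseA libraries, against 474 and 467 TPM in the mock libraries. Basophil and mast cell genes (Mcpt8, Prss34, Cpa3, Ms4a2 and Fcer1a) summed to 8.21 and 9.20 TPM in the exRNaseA libraries, against 12.4 and 10.0 TPM in the mock libraries. These sums compare transcripts and not cells, since the RNA per cell of each type is not known here.

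**Figure D1:**
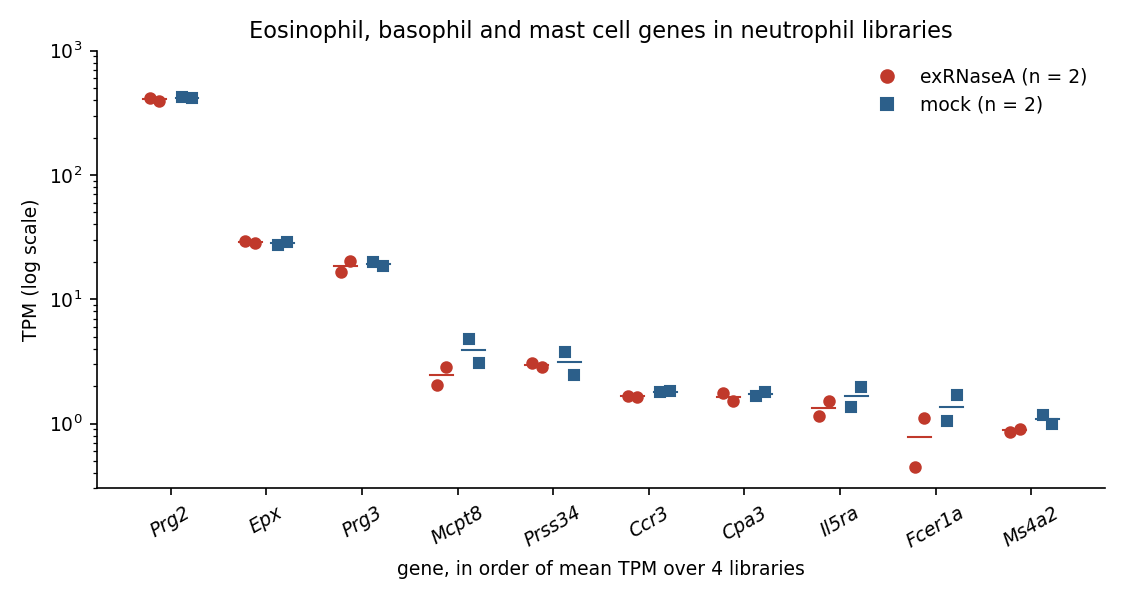
TPM on a log axis for each of the 10 genes, with exRNaseA libraries as red circles, mock libraries as blue squares and short lines at the mean of each group (n = 2). Prg2 stands 14.5 times above Epx by mean TPM, and the genes from Ccr3 to Ms4a2 overlap with their neighbours.

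The genes lie apart in the genome, with Prg2 and Prg3 the only pair on 1 chromosome. In mm10 coordinates Prg2 (ENSMUSG00000027073.5) spans chr2:84980461-84983632, Prg3 (ENSMUSG00000027072.13) chr2:84988196-84996559, Epx (ENSMUSG00000052234.2) chr11:87863997-87875536 and Mcpt8 (ENSMUSG00000022157.8) chr14:56082163-56085499. Prss34 (ENSMUSG00000056399.2) spans chr17:25298394-25300168, Cpa3 (ENSMUSG00000001865.2) chr3:20215616-20242209 and Ccr3 (ENSMUSG00000035448.9) chr9:124017825-124031692. Il5ra (ENSMUSG00000005364.11) spans chr6:106710375-106749037, Ms4a2 (ENSMUSG00000024680.12) chr19:11615517-11623790 and Fcer1a (ENSMUSG00000005339.10) chr1:173221269-173227232. Prg3 overlaps the gene P2rx3 by 11 bases and the lncRNA Gm39868 by 3784 bases. Cpa3 overlaps the lncRNA Gm31320 by 7199 bases, the pseudogene Gm7428 by 917 and Mir7007 by 70, and Mcpt8 overlaps Mir6949 by 68. Reads in such overlaps cannot be told apart where counting ignores strand. The deposited counts of all 10 genes were whole numbers in all 4 libraries, so no fractional sharing of reads with other genes showed in them. For Gm39868, Gm31320, Gm7428, Mir7007 and Mir6949 no level was found. Whole numbers therefore cannot show which gene the reads in those overlaps came from.

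Promoter windows from RefSeq (GRCm38.p6, the build of mm10), 250 bases before to 50 after an annotated start, were found for 9 of the 10 genes, all but Prg2. GATA factors are known to act in eosinophil, basophil and mast cell development, so the windows were searched on both strands for the hexamer AGATAA, the hexamer AGATAG, the hexamer TGATAA and the hexamer TGATAG, all called GATA motifs here. The gene's strand was also searched for the core promoter motif TATAAA. The GATA motifs were found in 7 of the 9 windows, against 29.8% of all 32851 windows in the table. The 7 were those of Prg3, Cpa3, Ms4a2, Fcer1a, Il5ra, Ccr3 and Prss34. Ms4a2 held 3 matches and Ccr3 held 2. TATAAA was present in 3 windows, those of Epx, Cpa3 and Fcer1a, against 8.32% of all windows. The shares over all windows were not matched for base content. G and C made up between 39.0% (Ccr3) and 53.7% (Epx) of the 9 windows. No GATA match overlapped a TATAAA match. The windows of Epx and Mcpt8 held no GATA motif, which says only that these letters are not in them. The start used lay inside the annotated span of the gene by 4146 bases in Ccr3, 302 in Mcpt8, 71 in Ms4a2, 28 in Cpa3, 19 in Prg3 and 3 in Fcer1a, and at its edge in Epx, Il5ra and Prss34. The Ccr3 matches at -64 and -30 and the Ms4a2 matches at -37 and -11 from that start therefore lie within the annotated genes. The last 80 bases before the start are shown for a gene of each role, an eosinophil granule enzyme, an eosinophil receptor, a basophil protease and a mast cell and basophil granule enzyme. They run 5′ to 3′ on the gene's strand, with GATA motifs and TATAAA in capitals, and the last 28 bases of the Cpa3 stretch lie within the annotated gene.
Epx, chr11:87875537-87875616, reverse strand: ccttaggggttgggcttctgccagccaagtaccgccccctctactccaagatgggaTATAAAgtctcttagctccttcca
Il5ra, chr6:106749038-106749117, reverse strand: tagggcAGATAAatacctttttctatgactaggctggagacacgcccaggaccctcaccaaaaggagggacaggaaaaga
Prss34, chr17:25298314-25298393, forward strand: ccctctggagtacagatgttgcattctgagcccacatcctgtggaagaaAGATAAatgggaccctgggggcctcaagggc
Cpa3, chr3:20242182-20242261, reverse strand: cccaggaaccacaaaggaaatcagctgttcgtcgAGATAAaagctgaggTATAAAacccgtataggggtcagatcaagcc
In these stretches the GATA motif begins 74 bases before the start in Il5ra, 31 in Prss34 and 46 in Cpa3. TATAAA begins 31 bases before the start in Cpa3 and 24 in Epx. A match is a description of the letters and no evidence of binding.

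RNase A outside the cells was compared with mock to ask whether it changes cellular RNA. None of the 10 genes passed the test, and the most abundant of them were bounded closely. The quasi-likelihood F test of edgeR, adjusted over all genes by Benjamini-Hochberg, called 0 of the 10 genes, against 0.0917% of all genes tested (13 of 14184), of which 0.0705% were lower and 0.0212% higher. At an unadjusted p under 0.05 it counted 2 of the 10 genes, Prg2 and Mcpt8, against 6.35% of all genes tested, while DESeq2 called 0 of the 10 and counted 0 at an unadjusted p under 0.05. Among the 24565 genes given a log2 change, DESeq2 called 9 and counted 291 at an unadjusted p under 0.05. How many of these genes received an adjusted p from DESeq2 is not given here. With TMM scaling the log2 change was negative for 8 of the 10 genes, against 50.1% of all genes tested. It was negative for 8 of the 10 with upper quartile scaling and for 7 with total count scaling. The share over all genes is not given here for those 2 scalings. The median log2 change was -0.11 over the 10 genes and -0.00 over all genes tested.

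Among the eosinophil granule genes, Prg2 had 3913 and 4042 counts in the exRNaseA libraries, against 4560 and 3910 counts in the mock libraries. These were 188.5 and 175.7 CPM (counts scaled to library size) in the exRNaseA libraries, against 194 and 189 CPM in the mock libraries. On this scale the groups did not overlap, by a margin of under 1 CPM, while on the TPM scale they did. The log2 change was -0.07 (SE 0.035, 95% interval -0.15 to -0.00, edgeR adjusted p = 0.762). The neutrophil genes had a negative log2 change in 10 of 12 tested, with a median of -0.05 (S100a9 -0.08). Of these 12 genes 0 were called, against 0.0917% of all genes tested, and 9 had an unadjusted edgeR p under 0.05, against 6.35%. In CPM, 8 had both exRNaseA libraries below both mock libraries, against 18.0% of all genes tested. The part of the neutrophil genes in the Prg2 value was not tested. The 12 neutrophil genes summed to between 265791 and 279013 TPM in the exRNaseA libraries, against between 277712 and 278602 TPM in the mock libraries, with none at 0.

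Epx had 1070 and 1126 counts in the exRNaseA libraries, against 1150 and 1049 counts in the mock libraries. Its log2 change was 0.01 (SE 0.051, 95% interval -0.10 to 0.12, edgeR adjusted p = 0.985). Prg3 had 8.19 and 9.82 CPM in the exRNaseA libraries, against 10.1 and 9.10 CPM in the mock libraries, which overlapped, and its counts summed to 396 in the exRNaseA and 426 in the mock libraries. Its log2 change was -0.09 (SE 0.12, 95% interval -0.35 to 0.17, edgeR adjusted p = 0.946).

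The eosinophil receptors had low counts. Ccr3 had 75 and 79 counts in the exRNaseA libraries, against 92 and 82 counts in the mock libraries, or 3.61 and 3.43 CPM in the exRNaseA against 3.91 and 3.97 CPM in the mock libraries. The groups did not overlap, but the 95% interval of the log2 change, -0.53 to 0.21 around -0.16, held 0 (edgeR adjusted p = 0.929). Il5ra had 50 and 80 counts in the exRNaseA libraries and 64 and 67 counts in the mock libraries. Both mock libraries lay between the exRNaseA libraries in CPM, and the log2 change was -0.01 (95% interval -0.48 to 0.47, edgeR adjusted p = 0.998).

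Of the basophil proteases, Mcpt8 had the lower values after exRNaseA. It had 19 and 29 counts in the exRNaseA libraries, against 52 and 29 counts in the mock libraries, or 0.915 and 1.26 CPM in the exRNaseA against 2.21 and 1.40 CPM in the mock libraries. The log2 change was -0.73 (SE 0.34, 95% interval -1.44 to -0.03, edgeR adjusted p = 0.759), and it did not pass the test across all genes. The ratio of the groups' shares of counts was 0.606 (exact 95% interval 0.415 to 0.877, counting error only). Without the mock library with 52 counts the log2 change was -0.36. Prss34, which marks the same cells, had 46 and 46 counts in the exRNaseA libraries, inside the range of the mock libraries at 65 and 37 counts, with a log2 change of -0.13 (95% interval -0.67 to 0.42, edgeR adjusted p = 0.960). The same mock library was the highest for Prss34, and without it the log2 change of Prss34 was 0.23.

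The carboxypeptidase and the IgE receptor chains also had low counts. Cpa3 had 32 and 30 counts in the exRNaseA libraries, against 35 and 26 counts in the mock libraries (log2 change 0.04, 95% interval -0.62 to 0.71, edgeR adjusted p = 0.993). Ms4a2 had 20 and 30 counts in the exRNaseA libraries, against 37 and 26 counts in the mock libraries (log2 change -0.32, 95% interval -1.02 to 0.39, edgeR adjusted p = 0.924). The CPM values of Ms4a2 overlapped, while its TPM values did not. Fcer1a had 5 and 14 counts in the exRNaseA libraries, against 14 and 20 counts in the mock libraries (log2 change -0.83, 95% interval -1.92 to 0.25, edgeR adjusted p = 0.853). Its interval was the widest of the 10 and held 0. Without the exRNaseA library with 5 counts the log2 change of Fcer1a was -0.35, and without the other exRNaseA library it was -1.67.

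**Figure D2:**
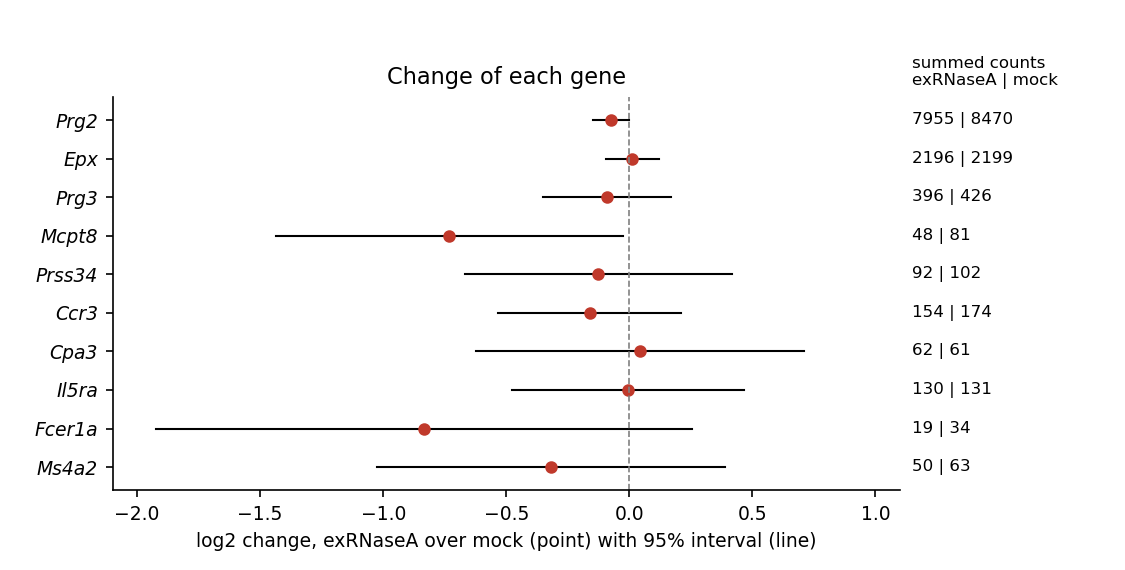
Log2 change of exRNaseA over mock from edgeR (points) with the 95% interval (lines), and the summed counts of each group at the right. The intervals widen as counts fall, from 7955 and 8470 counts of Prg2 to 19 and 34 counts of Fcer1a in the exRNaseA and mock libraries, and those of Prg2 and Mcpt8 end just below 0.

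In CPM, 3 of the 10 genes (Prg2, Ccr3 and Mcpt8) had both exRNaseA libraries below both mock libraries, against 18.0% of all genes tested. None had both above, against 17.7% of all genes tested. Counting both directions, 35.7% of all genes tested had groups that did not overlap. Summed over the basophil and mast cell genes, CPM was 5.88 and 6.48 in the exRNaseA libraries, against 8.62 and 6.68 in the mock libraries. Summed over the eosinophil genes it was 254 and 241 in the exRNaseA libraries, against 259 and 256 in the mock libraries. These sums were formed over genes chosen by name and carry no test.

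**Figure D3:**
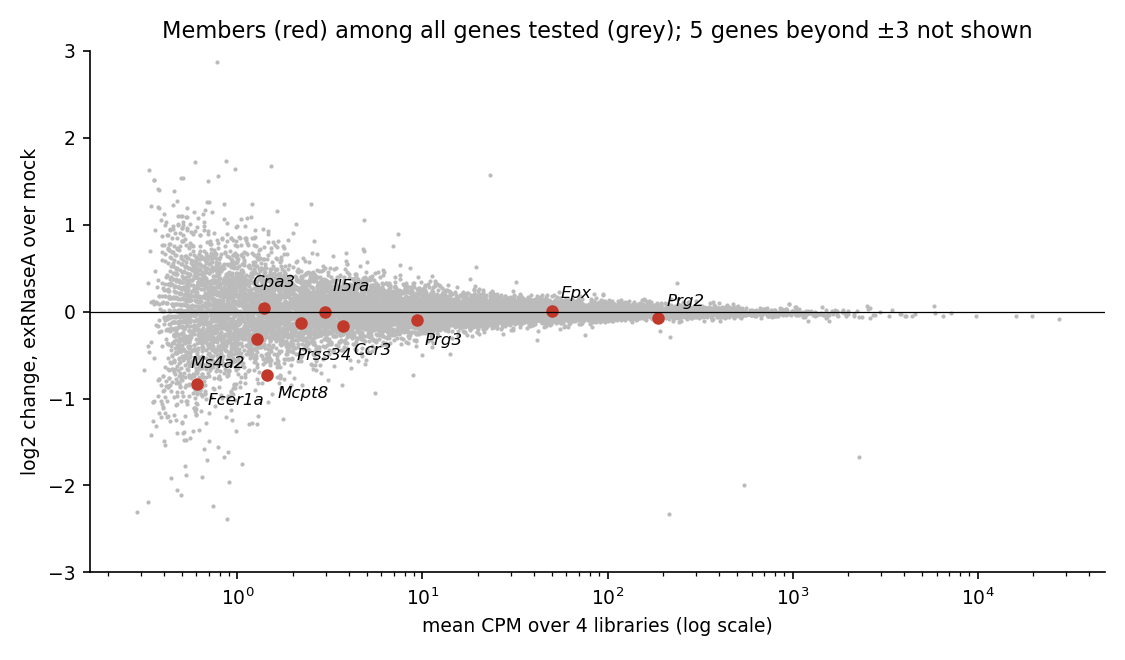
Log2 change of exRNaseA over mock against mean CPM (log axis) for all 14184 genes tested (grey) and the 10 genes (red, named). The 10 genes lie within the grey spread at their level, from -0.83 for Fcer1a to 0.04 for Cpa3, and 5 genes beyond 3 in either direction are not shown.

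None of the other eosinophil genes passed the test. The eosinophil-associated ribonucleases Ear2, Ear1 and Ear6, relatives of RNase A, averaged 148, 85.7 and 68.3 TPM in the exRNaseA libraries, against 149.8, 90.9 and 72.2 TPM in the mock libraries. Reads of Ear1 were partly shared with other genes, so its level is uncertain. Siglecf, a sialic acid receptor of eosinophils, had 6.89 and 5.35 TPM in the exRNaseA and 5.65 and 6.83 TPM in the mock libraries. Of the 9 genes 7 were tested and 0 were called (6 negative, median log2 change -0.11, lowest edgeR adjusted p = 0.795), and Ear10 and Hrh4 had no count in any library. Both exRNaseA libraries lay below both mock libraries in CPM for 4 of the 7, against 18.0% of all genes tested. The 4 are Ear1, Ear2, Ear6 and Alox15.

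Of 12 other basophil genes, 7 were tested and 0 called, with 5 positive log2 changes and a median of 0.02 (lowest edgeR adjusted p = 0.878). Hdc, which makes histamine and is also known from neutrophils, led the list at 620.1 TPM in the exRNaseA and 604 TPM in the mock libraries. Il18rap, a chain of the interleukin 18 receptor, averaged 217 and 212 TPM in exRNaseA and mock libraries. The basophil proteases Mcpt8 and Prss34 averaged 3.19 and 3.04 TPM over the 4 libraries. Which cells held the RNA of Il18rap was not tested. Il1rl1, the receptor of interleukin 33, averaged 10.7 and 9.96 TPM in exRNaseA and mock libraries (log2 change 0.10). Cd200r3, an activating receptor of basophils and mast cells, was near 0 with 7 and 9 counts in the exRNaseA and 9 and 6 counts in the mock libraries. Of the mast cell genes, Kit, the receptor of stem cell factor, averaged 17.6 and 13.5 TPM in exRNaseA and mock libraries (log2 change 0.09, edgeR adjusted p = 0.862). Mitf, a transcription factor of mast cells and other lineages, averaged 5.28 and 4.36 TPM in exRNaseA and mock libraries (log2 change 0.24, edgeR adjusted p = 0.738). Only these 2 of the 13 were tested, and Gzmb averaged 0.420 and 0.395 TPM in exRNaseA and mock libraries.

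The partners of the receptor chains were abundant. Fcer1g, the gamma chain that the IgE receptor shares with other Fc receptors of myeloid cells, had 707 and 764 TPM in the exRNaseA libraries, against 798 and 757 TPM in the mock libraries. It was between 445 and 1572 times above Fcer1a and between 688 and 840 times above Ms4a2 in the 4 libraries. The log2 change of Fcer1g was -0.11 (edgeR adjusted p = 0.609). Of the 13 signalling genes of this receptor, all tested, 0 were called, with 10 negative and a median log2 change of -0.02. The kinases Syk and Lyn averaged 282 and 187 TPM in the exRNaseA libraries, against 274 and 185 TPM in the mock libraries. Csf2rb, the beta chain that the interleukin 5 receptor shares with those of interleukin 3 and GM-CSF, averaged 151 TPM in the exRNaseA and 143 TPM in the mock libraries, between 73.8 and 121 times above Il5ra. Its reads were partly shared with the near-identical Csf2rb2. Of 11 genes on the interleukin 5 and eotaxin axis 6 were tested and 0 called (4 negative, median log2 change -0.01), with Jak2 at -0.01, Stat5b at 0.01 and the chemokine Ccl5 at -0.57 (edgeR adjusted p = 0.808). Il5, Il3 and Ccl11 had no count in any library.

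Srgn, the proteoglycan core that holds granule proteins in many blood cells, averaged 2893 TPM in the exRNaseA and 2904 TPM in the mock libraries. Epx stood between 0.103 and 0.107 times the level of Mpo in the 4 libraries. Ctsg, the cathepsin G gene that lies beside Mcpt8, averaged 58.1 and 56.7 TPM in exRNaseA and mock libraries, with a log2 change of -0.00 (edgeR adjusted p = 0.996). Of the 8 genes on the list of granule partners and paralogs, 4 were tested and 0 were called, with 2 negative and a median log2 change of 0.02.

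**Figure D4:**
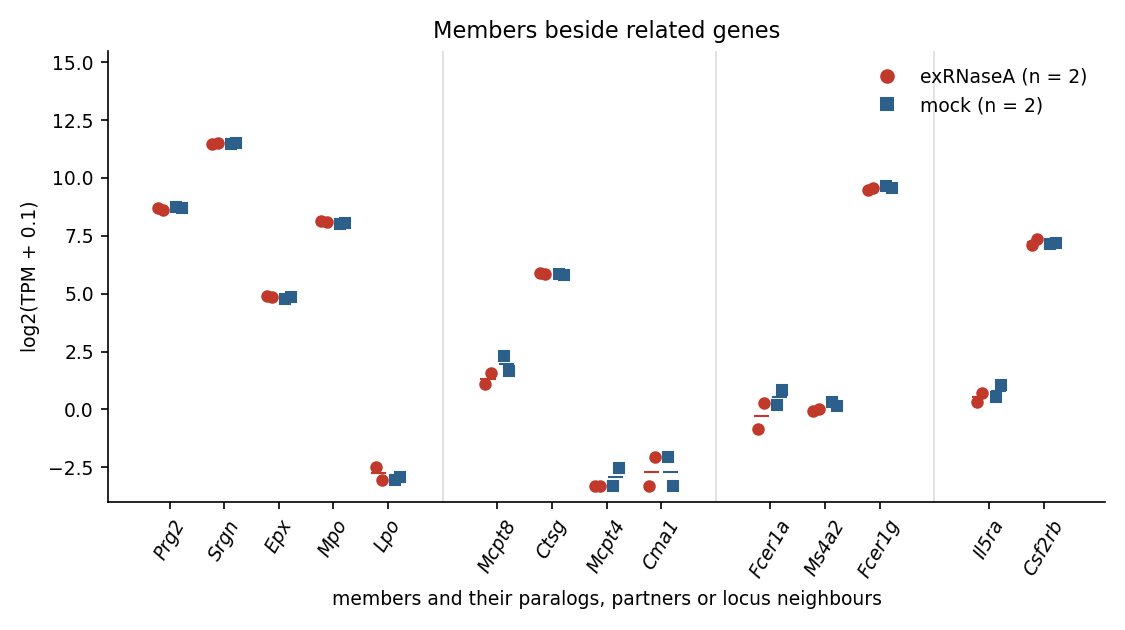
Log2(TPM + 0.1) of members beside their paralogs, partners or locus neighbours, with exRNaseA libraries as red circles, mock libraries as blue squares and short lines at the group means of these log values (n = 2). The shared chains Fcer1g and Csf2rb stand far above the lineage chains Fcer1a, Ms4a2 and Il5ra, and the chymases Mcpt4 and Cma1 lie at or near 0 TPM in every library.

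Markers of the other marrow cells gave 0 calls each. The median log2 change was 0.01 over 6 tested monocyte and macrophage genes (Ly6c2 -0.05, Csf1r -0.01, Adgre1 0.03) and -0.01 over 7 B cell genes (Ighm -0.04, Cd79a -0.06, Cd79b -0.04). It was -0.07 over 8 T and NK cell genes (Cd3d -0.19, Nkg7 0.06, Cd3g 0.27) and 0.04 over 8 erythroid genes (Hbb-bs -0.03, Hba-a1 0.04, Hba-a2 0.01). It was -0.09 over 6 megakaryocyte genes (Pf4 -0.26, Itga2b -0.20, Gp9 0.02, Vwf 0.20) and 0.02 over 5 stem and progenitor genes (Cd34 0.11, Meis1 -0.01, Hlf 0.31).

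**Figure D5:**
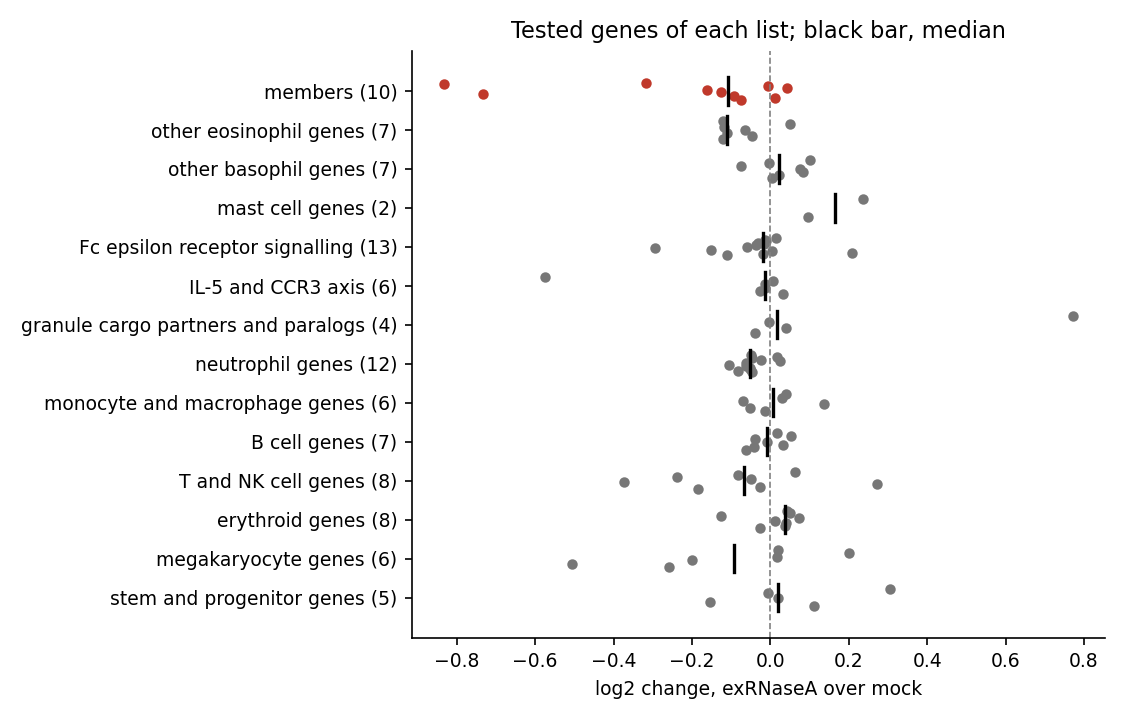
Log2 change of exRNaseA over mock for each tested gene of the 10 members (red) and of the other lists (grey), with the number of tested genes in brackets and a black bar at the median. The medians lie between -0.11 for the 10 members and other eosinophil genes and 0.17 for the 2 tested mast cell genes.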

How the data were processed

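Poly(A) RNA-seq of 2 exRNaseA and 2 mock libraries was used and the small RNA table was not used here. The deposited expected counts, TPM and FPKM values come from RSEM per the file headers. STAR 2.4.2a, RSEM 1.3.3 and mm10 are named in the submitters' processing notes. For the annotation release and the strandedness of counting, the sources used here give nothing.

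The gene tables paired 55450 of 55536 IDs with a symbol. Expected counts were rounded to whole numbers. In R 4.3.3, edgeR 4.0.16 (filterByExpr, TMM factors 0.993 to 1.01, glmQLFit and glmQLFTest) compared the groups over 14184 genes, with Benjamini-Hochberg adjustment over all of them and a threshold of 0.05. The biological coefficient of variation was 0.0244. SE and 95% intervals come from the F statistic, and ratios of counts have exact conditional intervals of counting error only. The code was tested on simulated data.

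The members and gene lists were chosen with earlier results of these data known. All 10 members are named, and from each other list the 3 genes with the highest mean TPM, the tested gene with the smallest p and any called gene; 1 gene that this rule names is not reported here. Siglecf, Cd200r3, Alox15 and genes at 0 counts were named after their values were seen. Alternatives were DESeq2 1.42.0, scaling by total count or upper quartile, omitting the filter, a filter of 10 CPM in 2 libraries, limma 3.58.1 on log2(TPM + 0.1), log2(TPM + 1) and log2(FPKM + 0.1) at a mean of 1 or more, the replicate number as a block, a threshold of 0.1 and each library left out.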

Additional observations from a re-analysis of the deposited data

How the results depend on the processing

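None of the 10 genes was called in any of the 14 alternatives, where between 2 (filter of 10 CPM) and 10 of them could be tested; the lowest adjusted p was 0.204, for Prg2 without exRNaseA replicate 1 (log2 change -0.12), and without exRNaseA replicate 2 it was -0.024. The count of negative log2 changes was 1 of 2 tested under the filter of 10 CPM and 7 or 8 otherwise. Of 128 alternative log2 values 12 changed sign. Cpa3 was -0.084, -0.055 and -0.093 with limma on log2(TPM + 0.1), log2(TPM + 1) and log2(FPKM + 0.1), and Il5ra was 0.013 under total count scaling. With single libraries left out Prg3 ranged from -0.23 to 0.030, Epx from -0.024 to 0.050, Cpa3 from -0.076 to 0.17, Il5ra from -0.30 to 0.23, Prss34 from -0.39 to 0.23, Ms4a2 from -0.56 to -0.12 and Mcpt8 from -1.01 to -0.36. Over all genes the 13 calls became 9 with DESeq2, 149 without a filter, 7 with the filter of 10 CPM, 8 with limma on log2(TPM + 0.1), 7 on log2(TPM + 1) and 8 on log2(FPKM + 0.1), and 74 without mock replicate 1, 9 without mock replicate 2, 59 without exRNaseA replicate 1 and 29 without exRNaseA replicate 2, where the lone library of a group is assumed to vary like the others; the cause was not tested. With the replicate number as a block 55 genes were called, none of them among the 10. Same-numbered libraries had a correlation of -0.032 between their deviations from the group means, a single value since the 2 pairs of such a design mirror each other, and whether the numbers mark a shared animal or day is not given in the labels. Depth limits the 7 genes under 100 counts in every library, which are the 5 basophil and mast cell genes and the receptors Ccr3 and Il5ra.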

Other observations

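The loci of these genes hold neighbours that stood at very different levels in the same libraries. Ccr1, a chemokine receptor of neutrophils and monocytes that lies 49132 bases from Ccr3, averaged 412 TPM in the exRNaseA and 419 TPM in the mock libraries. Ms4a3, a gene of granulocyte and monocyte progenitors that lies 5708 bases from Ms4a2, averaged 38.5 TPM in the exRNaseA and 40.6 TPM in the mock libraries. On the other side of Ms4a2, Ms4a6d averaged 0.285 TPM in the exRNaseA and 0.290 TPM in the mock libraries. Cpb1, the nearest coding gene to Cpa3 at 7269 bases, had no count in any library. Beside Prss34, Prss28 averaged 0.045 TPM in the exRNaseA libraries and was at 0 in the mock libraries. These neighbours are examples named after their values were seen. Of them Ccr1 (edgeR adjusted p = 0.753) and Ms4a3 (edgeR adjusted p = 0.894) were tested, and neither passed.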
